A study of Mus musculus with 4 samples.

Results

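Ebf1, Isl1, Zfp503 and Zfhx3, a set of 4 transcription factor genes linked to the direct-pathway neurons of the striatum, were followed by symbol through every library, as 4 of the 43346 features counted. Single-cell RNA sequencing was performed on wild-type C57BL/6 mouse forebrain at E12.5, with no treatment, reporter or deletion in any library. The ganglionic eminences, which are the caudal (CGE), the lateral (LGE) and the medial (MGE), and the cortex (CTX) gave 1 library per region, from tissue pooled over embryos and sexes. The labels speak of a sort for live DRAQ5+/DAPI- cells, whereas the methods name a sort only for a reporter line, and the effect of a sort on shares of cells was not tested. There was no replicate of a region, so no test was made between regions, and every interval below covers counting error only.

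Striatal projection neurons are the GABAergic output neurons of the striatum and are born in the LGE. Direct-pathway neurons reach the substantia nigra and make the dopamine receptor Drd1 and substance P (from Tac1), whereas indirect-pathway neurons reach the external pallidum and make Drd2 and enkephalin (from Penk). Ebf1, an atypical helix-loop-helix factor, is known for its role in the maturation of striatonigral neurons. Isl1, a LIM-homeodomain factor, is needed for direct-pathway neurons and also acts in the cholinergic neurons that come from the MGE. Zfp503 (Nolz1) is a zinc-finger factor of developing striatal neurons, and Zfhx3 is a very large zinc-finger homeodomain protein that acts in the differentiation of Drd1 neurons. Radial glia, the dividing progenitors of the ventricular zone, are rich in Nes, and newborn neurons switch on Dcx.

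In GENCODE M21 on GRCm38, Ebf1 (ENSMUSG00000057098.10) lay at chr11:44617317-45008091 on the plus strand and Isl1 (ENSMUSG00000042258.9) at chr13:116298281-116309689 on the minus strand. Zfp503 (ENSMUSG00000039081.9) lay at chr14:21983959-21989601 on the minus strand and Zfhx3 (ENSMUSG00000038872.9) at chr8:107942644-108961630 on the plus strand. All were protein-coding genes. Annotated genes on the opposite strand overlapped Ebf1 (Gm12158) and Zfhx3 (Gm20686, Gm39244 and Lncbate1). Reads of these pairs could not be told apart where counting ignored strand. Gm38042, Gm38318 and Mir3108 lay within Zfhx3 on the same strand, where strand does not tell reads apart. No annotated gene overlapped Isl1 or Zfp503.

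Since the 4 genes were found together in LGE neurons, the sequence just upstream of each RefSeq start was read from GRCm38.p6. Each window holds the bases 250 to 51 before the start, 5′ to 3′ on the gene's own strand. None of these 200 bases was exonic in the GENCODE transcripts of the same gene, and exons of other genes were not looked for. Capitals mark an E-box (CANNTG), the motif of helix-loop-helix factors.
Ebf1, chr11:44619978-44620177, plus strand: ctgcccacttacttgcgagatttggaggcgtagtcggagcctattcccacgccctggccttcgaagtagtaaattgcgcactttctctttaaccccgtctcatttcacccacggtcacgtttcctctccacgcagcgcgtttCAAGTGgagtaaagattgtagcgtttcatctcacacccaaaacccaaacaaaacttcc
Isl1, chr13:116309739-116309938, minus strand: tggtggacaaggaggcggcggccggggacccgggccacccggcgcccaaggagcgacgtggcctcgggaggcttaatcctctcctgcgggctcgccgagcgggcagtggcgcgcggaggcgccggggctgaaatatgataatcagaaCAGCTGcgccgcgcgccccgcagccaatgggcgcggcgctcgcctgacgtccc
Zfp503, chr14:21989652-21989851, minus strand: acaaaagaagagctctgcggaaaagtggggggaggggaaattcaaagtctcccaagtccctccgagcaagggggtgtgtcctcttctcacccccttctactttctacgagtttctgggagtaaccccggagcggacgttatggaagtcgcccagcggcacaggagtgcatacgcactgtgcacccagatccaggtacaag
Zfhx3, chr8:108714394-108714593, plus strand: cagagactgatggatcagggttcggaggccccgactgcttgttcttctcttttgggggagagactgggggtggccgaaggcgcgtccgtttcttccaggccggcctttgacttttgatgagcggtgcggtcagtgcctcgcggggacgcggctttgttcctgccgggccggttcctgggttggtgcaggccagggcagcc
The E-box of the Ebf1 window was CAAGTG, 108 bases before the start, and that of the Isl1 window was CAGCTG, 103 bases before it. An E-box occurred in 59.0% of the 32851 windows of the RefSeq table, so its presence does not set these windows apart. The palindromic EBF site, TCCC followed 2 bases on by GGGA (0.612% of all windows), the homeodomain core TAATTA (4.19%) and the cAMP response element TGACGTCA (0.828%) were looked for on both strands and were not in these 4 windows, which says nothing about binding elsewhere. GC content differed widely, at 50.5% for Ebf1, 73.5% for Isl1, 56% for Zfp503 and 64.5% for Zfhx3, beside a median of 51.5% over all windows. A second annotated start of Ebf1 lay 5′ of the one shown, and its window was exonic. The Zfhx3 window lay inside the gene as placed in GENCODE, which begins at 107942644. The Zfhx3 start shown is thus an internal one and not the 5′ end of that annotation.

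The libraries held 4301 to 6953 barcodes and 31451467 to 49794765 unique molecular identifiers (UMIs), and 3204 to 4755 cells passed the filters at a median of 6934.5 to 8221 UMIs. Cells with ln(1 + UMIs per 10000) above 1.5 for Dcx but not Nes were called high-Dcx (2046 LGE, 2273 CGE, 2168 MGE and 792 CTX cells). Cells above 1.5 for Nes but not Dcx were called high-Nes (587 LGE, 165 CGE, 516 MGE and 892 CTX cells). These classes are ranges of a score rather than types: 178 to 396 cells per library lay within 0.1 of the Dcx limit. Within 0.1 of the Nes limit lay 269 LGE, 77 CGE, 174 MGE and 298 CTX cells, many beside the size of the high-Nes class. The median Nes value of high-Dcx cells and the median Dcx value of high-Nes cells were 0 in every library. Any pair of libraries shared 4 to 15 barcodes. The labels MGE, CGE and CTX were checked against defining genes in high-Dcx cells, and no such check is given for LGE. Nkx2-1, a factor of the MGE, was 15.3-fold higher in MGE than in the next library, and Nr2f2, a factor of the CGE, 6.79-fold higher in CGE. In CTX, 92.4% of the high-Dcx cells without Ebf1 held at least 2 cortical glutamatergic markers.

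In high-Dcx cells taken as a whole, all 4 genes had their highest level in LGE, followed by CGE and then MGE, and were close to absent from CTX. A level is given as CPM, the UMIs of a gene per 1000000 UMIs of the cells summed, so that more positive cells and more UMIs per cell cannot be told apart in it. In high-Dcx cells the level of Ebf1 was 581 CPM (95% Poisson interval 568 to 593) in LGE, 129 CPM (124 to 135) in CGE, 96.6 CPM (91.6 to 102) in MGE and 8.11 CPM (6.09 to 10.6) in CTX. Isl1 was at 363 CPM (354 to 374) in LGE, 115 CPM (109 to 120) in CGE and 61.8 CPM (57.8 to 66.0) in MGE, and was not detected in CTX, where 0 UMIs allow a level of up to 0.451 CPM. Neither gene's intervals overlapped between any pair of libraries. Zfp503 was at 267 CPM (258 to 276) in LGE, 46.1 CPM (42.8 to 49.6) in CGE, 28.0 CPM (25.3 to 30.8) in MGE and 0.601 CPM (0.164 to 1.54) in CTX. Zfhx3 was at 485 CPM (473 to 496) in LGE, 175 CPM (169 to 182) in CGE, 134 CPM (128 to 140) in MGE and 3.60 CPM (2.31 to 5.36) in CTX. In this class the order LGE, CGE, MGE, CTX was thus the same for each of the 4 genes, with intervals that did not overlap between neighbours. The order of CGE and MGE was not the same for all 4 in cells past the cycle, as given below.

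The gap between LGE and the next library, CGE, was widest for Zfp503, at 5.79-fold (95% interval 5.35 to 6.28). It was 4.50-fold (4.28 to 4.72) for Ebf1, 3.17-fold (3.005 to 3.35) for Isl1 and 2.77-fold (2.65 to 2.90) for Zfhx3. Of 12821 genes with at least 50 UMIs in high-Dcx cells, 9.25% were highest in LGE with an interval above 1, and all 4 members were among them. CGE exceeded MGE by less, 1.34-fold (1.25 to 1.43) for Ebf1, 1.85-fold (1.71 to 2.01) for Isl1, 1.65-fold (1.46 to 1.87) for Zfp503 and 1.31-fold (1.24 to 1.39) for Zfhx3. LGE held 76.6% of all Ebf1 UMIs of kept cells, 69.4% of those of Isl1, 80.6% of those of Zfp503 and 64.0% of those of Zfhx3. These shares are not scaled for library size. Kept cells held 35666437 UMIs in LGE, 23386759 in CGE, 37290874 in MGE and 30207635 in CTX.

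**Figure D1:**
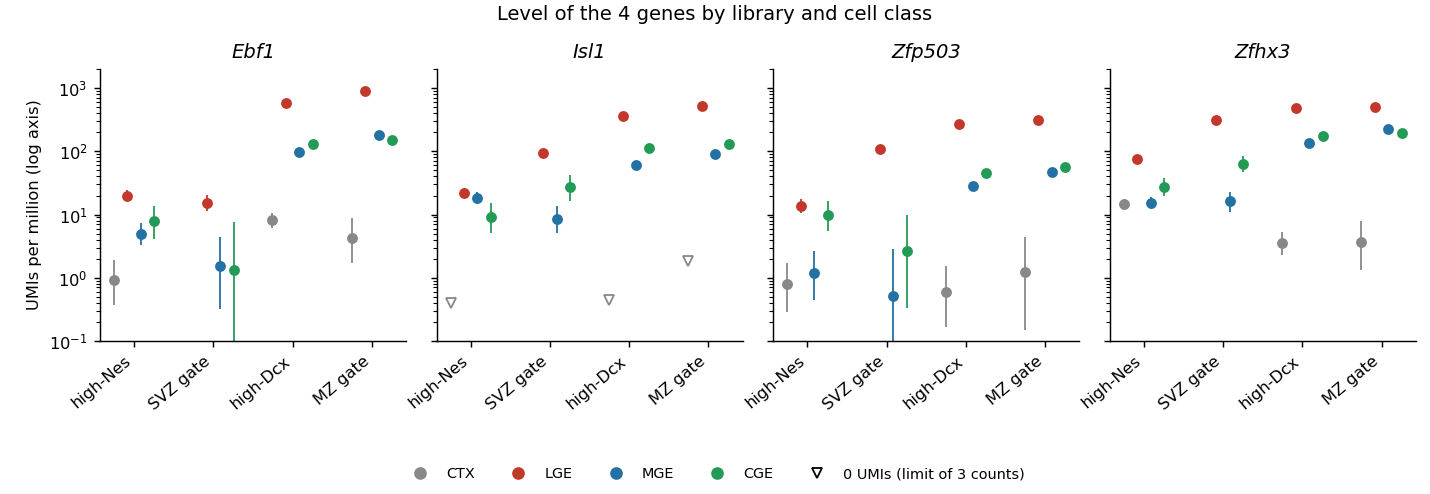
Level of each gene in CPM (log axis) in 4 classes of cells, with 1 point per library and 95% Poisson intervals, which are cut at the lower edge of the plot. Open triangles mark 0 UMIs at the level 3 counts would give, and the 15 CTX cells of the SVZ gate are left out. LGE (red) is highest in high-Dcx cells for each gene, from 267 to 581 CPM.

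Neurons with a UMI of a member were also more frequent in LGE than elsewhere. For shares, each cell was thinned to 3000 UMIs and shallower cells were left out, 41 of them in LGE. Ebf1 had a UMI in 25.2% (Clopper-Pearson 95% interval 23.3 to 27.2) of 2005 LGE high-Dcx cells, 6.96% of 2241 CGE cells, 4.16% of 2116 MGE cells and 1.41% of 778 CTX cells. Isl1 had a UMI in 37.7% (35.5 to 39.8) of the LGE cells, 9.24% of the CGE cells, 5.91% of the MGE cells and 0 of 778 CTX cells, which allows a share of up to 0.386%. In the same order, the shares were 39.2% (37.1 to 41.4), 7.18%, 3.69% and 0.129% for Zfp503. Zfhx3 had a UMI in 55.0% (52.8 to 57.2) of the LGE cells, 22.0% of the CGE cells, 9.74% of the MGE cells and 0.771% of the CTX cells. At their own depth, 28.4% of LGE high-Dcx cells held Ebf1, 44.0% Isl1, 51.1% Zfp503 and 69.1% Zfhx3.

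As the only view of free RNA, 59 LGE barcodes that were mostly globin RNA (a median of 1248 other UMIs, against 6419.5 UMIs in high-Dcx cells) held Ebf1 in 3.39%, Isl1 in 5.08%, Zfp503 in 3.39% and Zfhx3 in 3.39%. These shares rest on 2 or 3 barcodes each, which were shallower than the 3000 UMIs the neurons were thinned to, and the 28 Ebf1 UMIs lay in 2 of them, so they give no background level for thinned cells. Neurons with Ebf1 held a median of 14 UMIs of it in LGE (highest 48), 12 in MGE (highest 43) and 6 in CGE (highest 43). Isl1-positive LGE neurons held a median of 4 UMIs (highest 30). The median was 3 for both Zfp503 (highest 19) and Zfhx3 (highest 30).

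Each of the 4 genes was higher in high-Dcx than in high-Nes cells in the eminences. Kept cells above neither limit (1974 in LGE, 2041 in MGE, 749 in CGE) were left out of this comparison. They held 41.5% of the Ebf1 and 42.3% of the Isl1 UMIs of LGE, beside 44.9% of all UMIs. In each eminence their level of each gene was below that of high-Dcx cells. The thinned share of Isl1 was 7.66% in these cells of MGE and 5.91% in high-Dcx cells, with intervals that overlapped. In CGE it was 9.72% and 9.24%, also with overlap. High-Nes cells of LGE held Ebf1 at 19.9 CPM, Isl1 at 22.1, Zfp503 at 13.7 and Zfhx3 at 75.7. In those cells the thinned share was 3.87% for Ebf1, 4.57% for Isl1 and 3.34% for Zfp503, and Zfhx3 was found in 20.6% (17.3 to 24.1). Of 569 such cells 2 held all 4 genes, and Isl1 was found in 5 of the 22 with Ebf1 (22.7%, 7.82 to 45.4) and in 3.84% (2.39 to 5.81) of those without it. How much of these low shares was free RNA was not tested. In high-Nes cells the LGE level of Isl1 was 1.21-fold that of MGE (0.912 to 1.62) and that of Zfp503 1.39-fold that of CGE (0.786 to 2.61), so these neighbours were not separated.

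The difference between the classes was tested over the 3 eminences by edgeR's quasi-likelihood method, with the library as a block on 6 sums of UMIs, a high-Dcx and a high-Nes one for each eminence. The spread is that between 3 regions, not between embryos. Ebf1 was higher in high-Dcx cells by 4.64 ± 0.18 on the log2 scale (SE, adjusted p = 8.52e-05), Isl1 by 3.19 ± 0.47 (adjusted p = 0.00256), Zfp503 by 3.97 ± 0.38 (adjusted p = 0.000647) and Zfhx3 by 2.91 ± 0.12 (adjusted p = 8.52e-05). All 4 were higher in 3 of 3 libraries, beside 27.8% of the 13060 genes tested that were called higher. The log2 differences of Ebf1 were 4.87 (LGE), 4.03 (CGE) and 4.27 (MGE), and those of Zfhx3 were 2.68, 2.66 and 3.12. The libraries lay further apart for Isl1, at 4.04, 3.63 and 1.76, and for Zfp503, at 4.28, 2.22 and 4.54. In CTX the ratio went the other way for Zfhx3, which was 0.247-fold (0.152 to 0.387) in high-Dcx relative to high-Nes cells, from 24 and 111 UMIs, and with CTX added as a further library the difference of Zfhx3 no longer passed (adjusted p = 0.0862).

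All 6 genes of neuronal maturation (Mapt, Rbfox3, Stmn2, Ina, Tubb3, Gap43) were higher in high-Dcx cells, with a median log2 change of 3.93 beside 0.03 over all genes. The progenitor genes Hes1 (-6.18 ± 0.17), Hes5 (-5.40 ± 0.24) and Gsx2 (-2.42 ± 0.20) were lower, as were 27.3% of all genes, and Dlx1 and Dlx2 were higher. Of the direct-pathway list, which includes Ebf1 and Isl1 themselves, 3 of 5 tested genes were higher, the third being Tac1 with 6.06 ± 0.35 (adjusted p = 0.000150), and Sfxn1 was lower. Of 4 indirect-pathway genes tested, Sp9 (2.65 ± 0.12) and Grik3 were higher, and Six3, at 0.68 ± 0.44 (adjusted p = 0.227), did not pass. Of 14 general striatal projection neuron genes tested, 8 were higher and Sox8 was lower.

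The 4 genes differed in where, within high-Dcx cells, they appeared. Cells still cycling were taken with an SVZ gate (Mki67 and Ccnd2 above 0.5, Mapt and Rbfox3 below 0.5, with 389 LGE, 72 CGE and 210 MGE cells). Cells past the cycle were taken with an MZ gate (Nes, Hes5, Mki67, Ccnd1 and Ccnd2 below 0.5, with 560, 1203 and 843 cells). In LGE, Ebf1 was at 15.4 CPM in SVZ-gate cells and 897 in MZ-gate cells, a 58.2-fold difference (44.5 to 77.6). Isl1 was at 93.6 and 517 CPM (5.53-fold, 4.91 to 6.24), Zfp503 at 110 and 317 CPM (2.87-fold, 2.56 to 3.24) and Zfhx3 at 319 and 507 CPM (1.59-fold). The thinned share of Zfhx3 was 50.4% (45.3 to 55.5) in the SVZ gate and 48.1% (43.8 to 52.4) in the MZ gate, whereas that of Ebf1 was 2.57% (1.24 to 4.68) and 34.3% (30.3 to 38.4). Isl1 was found in 17.5% and 45.7% of these cells and Zfp503 in 22.9% and 41.3%. In the cycling class of LGE the share of Zfhx3 thus lay within the interval of its share in the MZ gate, while the shares of Ebf1, Isl1 and Zfp503 were below theirs in the MZ gate.

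In CGE, Isl1 was at 26.9 CPM in SVZ-gate and 130 CPM in MZ-gate cells, and Zfhx3 at 63.2 and 198 CPM. In MGE, Isl1 was at 8.64 and 92.0 CPM, and Zfhx3 at 16.3 and 222 CPM. Ebf1 and Zfp503 were nearly undetected in the SVZ gate there, with 3 and 1 UMIs in MGE and 1 and 2 UMIs in CGE, against 179 and 46.5 CPM (MGE) and 149 and 55.8 CPM (CGE) in the MZ gate. Over the 3 eminences, edgeR with the library as a block gave log2 differences, MZ over SVZ gate, of 5.90 ± 0.18 for Ebf1 (SE, adjusted p = 1.26e-08) and 2.51 ± 0.17 for Isl1 (adjusted p = 2.70e-06). They were 2.08 ± 0.40 for Zfp503 (adjusted p = 0.00231) and 1.61 ± 0.42 for Zfhx3 (adjusted p = 0.0104), and 23.3% of the 10959 genes tested were called higher. All 4 were higher in 3 of 3 libraries. Without the library block the adjusted p was 0.0780 for Isl1, 0.365 for Zfp503 and 0.383 for Zfhx3. Without the LGE library the log2 differences were 5.34 for Zfp503 and 2.64 for Zfhx3, and without MGE that of Zfhx3 was 0.91. Of the lists, 4 of 5 direct-pathway genes tested were higher, which were the members Ebf1 and Isl1 themselves, Tac1 and Sfxn1. None of 3 indirect-pathway genes was higher and Sp9 was lower by 0.69 ± 0.10 (adjusted p = 0.000392), beside 23% of all genes called lower.

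As a share of all high-Dcx cells, the 4 genes were found together far more often in LGE than elsewhere. After thinning, 31.3% of LGE high-Dcx cells held none of them, against 71.3% of CGE, 88.1% of MGE and 97.8% of CTX cells. At least 2 of the 4 were found in 46.7% (44.5 to 48.9) of LGE, 9.59% of CGE, 5.72% of MGE and 0.129% of CTX cells. All 4 were found in 232 of 2005 LGE cells (11.6%, 10.2 to 13.1), 45 of 2241 CGE cells (2.01%), 41 of 2116 MGE cells (1.94%) and 0 of 778 CTX cells. Each gene alone was also more frequent in LGE. Of cells with any of the 4, all 4 were found in 232 of 1377 in LGE, 45 of 643 in CGE and 41 of 251 in MGE. Among these cells the MGE share was thus close to that of LGE. Among LGE cells the most frequent sets were Zfhx3 alone (300 cells), all 4 (232 cells), Isl1 with Zfp503 and Zfhx3 (187 cells), and Zfp503 with Zfhx3 (156 cells), and Ebf1 alone was found in 28 cells.

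**Figure D2:**
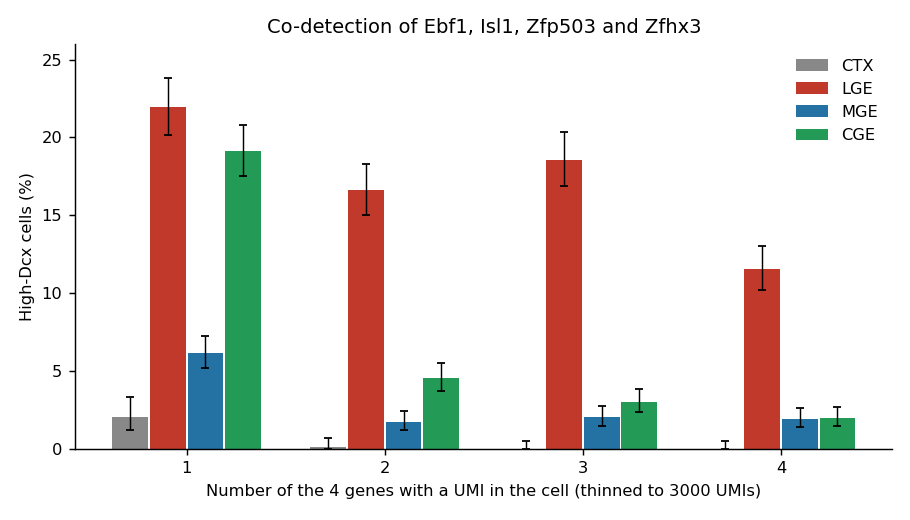
Share of high-Dcx cells (%, thinned to 3000 UMIs) in which 1, 2, 3 or all 4 of the genes had a UMI, by library, with Clopper-Pearson 95% intervals. Cells with none of them are not drawn. LGE cells hold 3 of the genes in 18.6% and all 4 in 11.6%, while most CGE cells with any of them hold only 1 (19.1% of all).

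The genes were found together in the same cells. In LGE, Isl1 was found in 80.4% (76.7 to 83.8) of 506 cells with Ebf1 and in 23.2% (21.1 to 25.4) of 1499 cells without it. The reverse was less complete, with Ebf1 in 53.9% of 755 cells with Isl1 and 7.92% of cells without it. Zfhx3 was found in 79.6% of LGE cells with Zfp503 and 39.1% of cells without it. The MGE shares were not uniformly higher or lower than those of LGE. In MGE, Isl1 was found in 71.6% (61.0 to 80.7) of the 88 cells with Ebf1 and Zfp503 in 45.6% of 125 cells with Isl1, against 67.7% in LGE. Zfhx3 was found in 94.3% (87.2 to 98.1) of the MGE cells with Ebf1 and 6.07% of cells without it, and Ebf1 in 40.3% of 206 cells with Zfhx3 but in 0.262% of cells without it. In CGE, Isl1 was found in 57.7% (49.5 to 65.6) of 156 cells with Ebf1 and in 5.61% of cells without it. In all 3 eminences the second gene of each of the 6 pairs was more frequent in cells with the first than in cells without it. As a ratio of these shares, the contrast was smallest in LGE for every pair. For Isl1 with over without Ebf1 it was 3.46-fold in LGE, 10.3-fold in CGE and 23.4-fold in MGE. The LGE shares of Zfhx3 were 77.9% with Ebf1 and 47.3% without it. Cells without the first gene held the second most often in LGE.

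**Figure D3:**
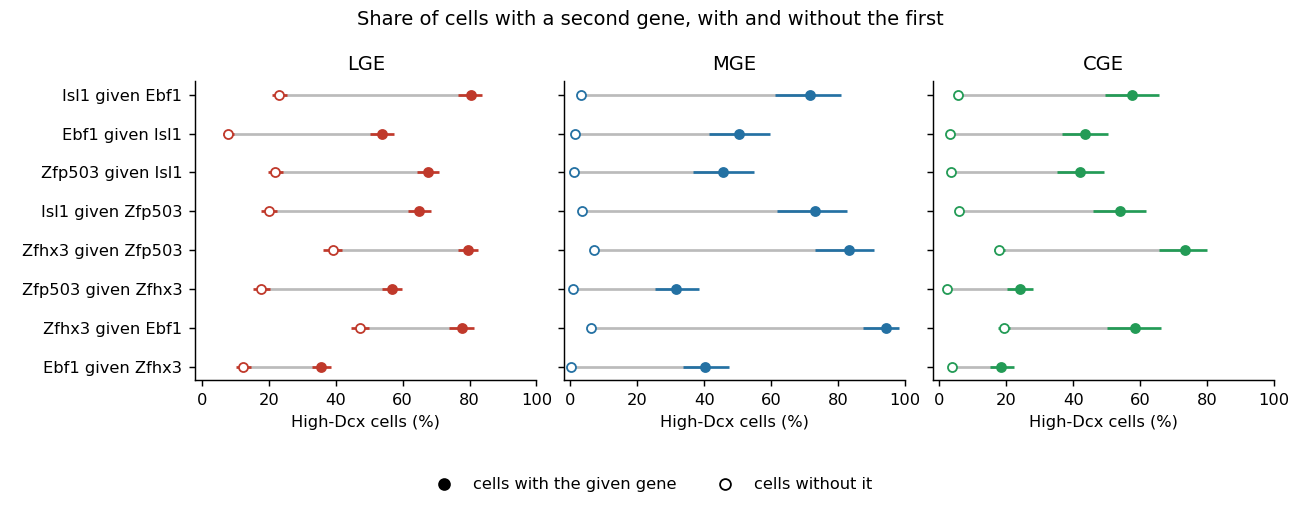
Share of thinned high-Dcx cells (%) in which a gene was found, among cells with a second, given gene (filled) and without it (open), in LGE, MGE and CGE, with Clopper-Pearson 95% intervals. Filled points lie to the right of open ones for every pair drawn, and in MGE the share of Ebf1 without Zfhx3 is 0.262%.

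Over high-Dcx cells of LGE, the correlation of ln(1 + UMIs per 10000) was taken between each member and 9009 genes found in at least 5% of the 2046 cells, as a description, since cells share a library and its depth. Isl1 ranked 2nd for Ebf1 (r = 0.59), after Apbb2 (r = 0.59), an adaptor of the amyloid precursor protein, and was followed by the imprinted growth regulator Dlk1 (0.58), the kinase Plk2 (0.55) and Rgs2 (0.54), a regulator of G-protein signalling. The POU factor Pou3f1 ranked first for each of Isl1 (0.60), Zfp503 (0.64) and Zfhx3 (0.55). After it, Isl1 was most like Zfp503 (0.59), Ebf1 (0.59), Apbb2 (0.50) and Basp1 (0.49). Zfp503 was followed by Isl1 (0.59), Zfhx3 (0.55), Basp1 (0.46) and Islr2 (0.46). Zfhx3 was followed by Zfp503 (0.55), its relative Zfhx4 (0.45), Meis2 (0.44) and Isl1 (0.43). The lowest correlations were with Sp9, a factor of indirect-pathway neurons, for Ebf1 (−0.56) and Isl1 (−0.62), with the progenitor factor Sox2 for Zfp503 (−0.51) and with Tcf4 for Zfhx3 (−0.49). For Ebf1 in LGE, Zfp503 ranked 42nd and Zfhx3 43rd (r = 0.38 for both). In MGE high-Dcx cells the correlation between Ebf1 and Isl1 was 0.70, and in CGE 0.64. The other genes named for Ebf1 had lower correlations with it there than in LGE. In MGE and CGE these were 0.38 and 0.33 for Apbb2, 0.23 and 0.25 for Dlk1, 0.49 and 0.29 for Plk2, and 0.52 and 0.17 for Rgs2.

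In LGE neurons, cells with Ebf1 held more Tac1 and less Six3 and Sp9 than cells without it. Levels were compared between the 581 high-Dcx cells with a UMI of Ebf1 (median depth 6655 UMIs) and the 1465 without (6331 UMIs), at the cells' own depth. Tac1 was at 353 CPM with and 5.27 CPM without Ebf1, 66.9-fold (50.9 to 89.8), and 45.6-fold when thinned. Drd1 was at 12.03 and 3.98 CPM, 3.02-fold (1.95 to 4.71, from 49 and 40 UMIs), although thinning left Drd1 at 1.68-fold (0.871 to 3.15). Six3, an indirect-pathway factor, was at 84.7 CPM with and 553 CPM without Ebf1 (0.153-fold, 0.137 to 0.171), and Sp9 at 85.9 and 594 CPM (0.145-fold). Six3 also fell with stage in LGE, from 52.2% of SVZ-gate to 21.9% of MZ-gate cells when thinned, while Ebf1 rose. Six3 was not particular to neurons. Its thinned share in high-Nes and high-Dcx cells was 38.8% and 32.2% in LGE, 28.8% and 19.4% in CGE, and 27.3% and 9.12% in MGE. The part of stage in these ratios was not tested. Penk had 1 UMI in cells with Ebf1 and 42 in cells without it. Among general striatal genes, Sox8 (17.9-fold), the retinoic acid receptor Rarb (8.61-fold) and Foxp1 (3.33-fold, 3.14 to 3.52) were higher with Ebf1, as was Bcl11b (Ctip2), a regulator of striatal projection neurons, at 2.11-fold. Ikzf1 (Ikaros) had 7 and 1 UMIs. The MGE factors Lhx8 (0.0617-fold), Nkx2-1 (1 and 74 UMIs) and Lhx6 (0.0808-fold) were lower with Ebf1.

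By list, 4 of 7 detected direct-pathway genes other than Ebf1 were above 1 with an interval off 1 in cells with Ebf1 (Isl1 is 1 of them) and 1 was below. None of 6 indirect-pathway genes was above and 5 were below, with a median ratio of 0.149. Of 16 general striatal genes 11 were above and 4 below, all 6 maturation genes were above, and 4 of 4 dorsal LGE genes were below. For comparison, 24.5% of 10552 genes with at least 50 UMIs were above 1 in this sense and 22.1% below.

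Isl1 gave a like contrast for most of these genes, whereas Six3 was below 1 by less with Zfp503 and was above 1 with Zfhx3. With Isl1, Tac1 was 39.4-fold (29.4 to 54.1) at the cells' own depth but 10.97-fold when thinned, outside that interval. Drd1 was 1.47-fold (0.949 to 2.29, which includes 1), Six3 0.471-fold and Sp9 0.257-fold, and all 43 UMIs of Penk lay in cells without Isl1. Of 6 indirect-pathway genes 5 were below 1 and of 16 general striatal genes 12 were above, where 19.1% of all genes were above and 19.6% below. With Zfhx3, Six3 was 1.42-fold (1.33 to 1.51, and 1.21-fold when thinned) and Adora2a, a receptor of indirect-pathway neurons, 1.90-fold (1.204 to 3.11). Penk was 5.15-fold (1.64 to 26.02, from 40 and 3 UMIs, and 1.74-fold, 0.711 to 4.66, when thinned). Tac1 was 7.29-fold (5.77 to 9.32) with Zfhx3 at the cells' own depth but 2.01-fold when thinned, outside that interval. So 3 of 6 indirect-pathway genes were above 1 and 1 (Sp9, 0.567-fold) was below, where 11.8% of all genes were above and 12.9% below. Mapt, a marker of maturation, was 0.545-fold with Zfhx3, and 4 of 6 maturation genes were below 1. With Zfp503, Six3 was 0.938-fold (0.891 to 0.988) and, when thinned, 0.810-fold. Aldh1a3, a retinoic acid synthesis enzyme, was 4.05-fold (3.60 to 4.56, and 2.94-fold when thinned) and the retinoid receptor Rxrg 7.10-fold. Of 16 general striatal genes 10 were above and 2 below, where 15.4% of all genes were above and 17% below. Tac1 was 3.52-fold with Zfp503 at the cells' own depth but 0.855-fold (0.699 to 1.04) when both the groups and the levels were taken from thinned cells, an interval that includes 1. Penk was 2.75-fold and, thinned, 0.730-fold (0.273 to 1.79). No direction is drawn for either, and the cause of the difference was not tested.

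**Figure D4:**
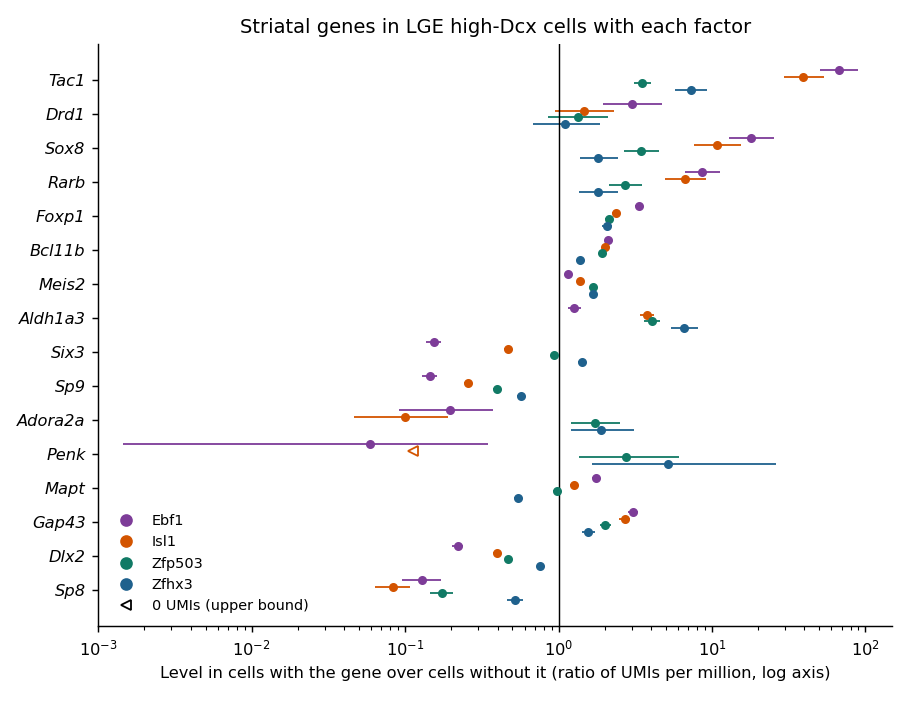
Level of 16 listed genes in LGE high-Dcx cells with a UMI of each factor over the level in cells without it (ratio of CPM, log axis), with exact 95% intervals. The open triangle is the upper bound for Penk with Isl1, where 0 UMIs were found. Six3 lies far below 1 with Ebf1 (0.153) and above 1 with Zfhx3 (1.42), while Tac1 lies above 1 with each factor at this depth.

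When LGE cells were grouped by the set of factors they held after thinning, the levels of other striatal genes differed from set to set. Six3 was at 355 CPM in the 628 cells with none of the 4, 789 CPM in the 300 with Zfhx3 alone, 825 CPM in the 156 with Zfp503 and Zfhx3, 488 CPM in the 348 with Isl1 but no Ebf1 and 26.9 CPM in the 407 with Ebf1 and Isl1. Sp9 went from 710 and 652 CPM in the first pair of groups to 540, 276 and 24.5 CPM. Dlx2, a factor of GABAergic progenitors, went from 730 and 731 CPM to 587, 401 and 67.2 CPM. In the 99 cells with Ebf1 but no Isl1, Six3 was at 81.6 CPM, Sp9 at 141 CPM and Dlx2 at 215 CPM, between the groups without Ebf1 and the group with both. Tac1 was at 9.34, 0.443, 1.84 and 8.69 CPM in the groups without Ebf1, at 230 CPM with Ebf1 but no Isl1 and at 437 CPM with Ebf1 and Isl1. Foxp1 was at 135, 292, 368 and 188 CPM, and at 381 CPM with Ebf1 but no Isl1 and 879 CPM with Ebf1 and Isl1. Aldh1a3 was highest, at 341 CPM, in cells with Isl1 but no Ebf1. The SVZ gate held 25.3%, 34.7%, 25.0% and 18.4% of the cells of the groups without Ebf1, 6.06% of those with Ebf1 but no Isl1 and 0.983% of those with Ebf1 and Isl1, so that stage moved with the set of factors, and its part in these levels was not tested.

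**Figure D5:**
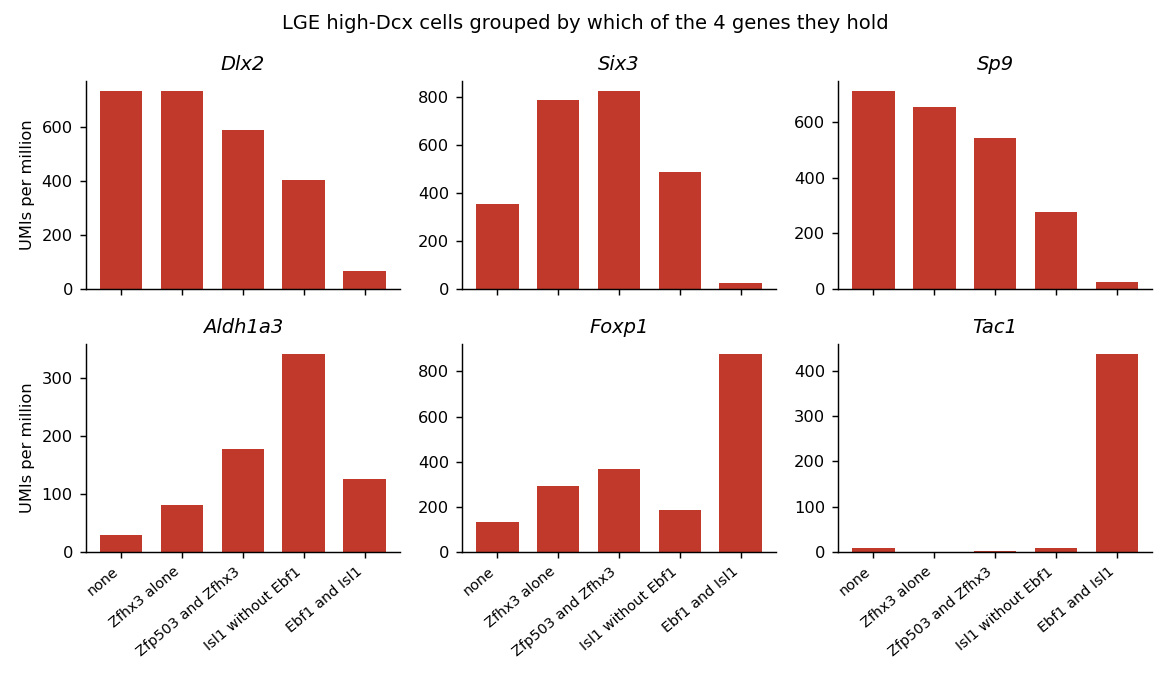
Level of 6 genes (CPM, linear axes from 0) in LGE high-Dcx cells grouped by which of the 4 factors had a UMI after thinning. Bars are sums over the cells of a group, with no replicate. The 99 cells with Ebf1 but no Isl1 are not drawn. Of the 5 groups drawn, Six3 and Sp9 are lowest, and Foxp1 and Tac1 highest (879 and 437 CPM), in cells with Ebf1 and Isl1.

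Ebf1 cells of MGE held fewer MGE markers and more Six3 and Meis2 than other MGE cells. In MGE the 103 high-Dcx cells with Ebf1 all held at least 2 GABAergic markers, and 16.5% of them held at least 2 of the MGE markers Nkx2-1, Lhx6 and Lhx8, against 73.8% of the cells without Ebf1. Six3 was 6.01-fold (with Ebf1), 6.72-fold (Isl1), 6.99-fold (Zfp503) and 10.4-fold (Zfhx3) in MGE, and Meis2, a homeodomain factor of LGE derivatives, 11.9-, 15.0-, 21.8- and 13.8-fold. Lhx8 was 0.244-, 0.551-, 0.0342- and 0.897-fold, with the smallest ratio for Zfp503, and the intervals of Isl1 (0.478 to 0.632) and Zfhx3 (0.820 to 0.981) still lay below 1. MGE cells with all 4 factors (41 cells) held Six3 at 347 CPM and Tac1 at 3.44 CPM (1 UMI), against 13.5 CPM and 175 CPM in the 232 LGE cells with all 4. Whether such cells belonged to the MGE or came with neighbouring tissue was not tested.

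In CGE, Zfhx3 marked cells with Six3, at 695 CPM with and 71.6 CPM without Zfhx3 (9.71-fold, 8.97 to 10.5). Tac1 had 2 UMIs in the 194 CGE cells with Ebf1 and 252 in those without it (0.0713-fold), but was 12.1-fold (9.26 to 15.8) with Isl1. Ebf1 cells of CGE were mixed: of 66 with Ebf1 but no Isl1 after thinning, 60.6% held at least 2 cortical glutamatergic markers and 45.5% at least 2 GABAergic markers, against 1.11% and 100% of the 90 with Ebf1 and Isl1. In LGE, 15.2% of the 99 cells with Ebf1 but no Isl1 held at least 2 glutamatergic markers and 0.246% of those with both genes did. CGE cells with Ebf1 and Isl1 held Foxp1 at 407 CPM and Bcl11b at 2094 CPM, close in Bcl11b to the 2054 CPM of the LGE cells with both, but had 0 UMIs of Tac1.

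In CTX the few cells with Ebf1 held markers of several classes. Of 89 kept CTX cells with Ebf1, none held 2 or more GABAergic markers, 79.8% held at least 2 glutamatergic markers against 51.6% of cells without Ebf1, 50.6% at least 2 radial glia markers against 76.2%, and 22.5% at least 2 Cajal-Retzius markers against 0.715%. A cell can count under more than 1 list. Of the 160 Ebf1 UMIs of CTX, 60.6% lay in cells with at least 2 radial glia markers and 31.9% in 31 cells called pericyte or mesenchyme. Ebf1 was at 206 CPM in these and at 338, 594 and 496 CPM in the 8, 21 and 9 such cells of LGE, MGE and CGE, while Isl1 had 0 UMIs in all of them but for 1 UMI in CGE. Zfhx3 was found in 19 of 28 CTX microglia or macrophages (114 CPM), and in 5 of 5 such LGE cells, 2 of 3 CGE cells and 5 of 6 MGE cells. None of the 581 LGE high-Dcx cells with Ebf1 held 2 or more markers of pericytes, endothelium or microglia, and 95.01% held at least 2 GABAergic markers.

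Of the related genes, Zfhx4 and Zfhx2 had the same order of libraries in high-Dcx cells as the members, and the EBF and LIM-homeodomain relatives did not. Zfhx4 was at 207 CPM in LGE high-Dcx cells, 78.4 in CGE, 31.1 in MGE and 8.41 in CTX, 2.64-fold higher in LGE than in CGE, and Zfhx2 was at 142, 120, 101 and 57.2 CPM. Ebf2, in contrast, was highest in CTX (11.6 CPM, against 1.13 in LGE), and Ebf3 was at 4.25 CPM in CGE and 0.0707 CPM (1 UMI) in LGE. Isl2, Lhx3 and Lhx4 were at or below 0.300 CPM in every library. Ldb1, the cofactor of LIM-homeodomain proteins, lay between 67.7 and 92.9 CPM in all 4 libraries. Zfp703, the relative of Zfp503, was at 27.1 CPM in LGE, 23.9 in CTX, 15.9 in CGE and 8.92 in MGE.

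Under the rule met by 9.25% of genes (highest in LGE, interval above 1), 3 of 9 direct-pathway genes passed. These were the members Ebf1 and Isl1, already given above, and Tac1, the only other listed gene to pass. Tac1 was at 105 CPM in LGE high-Dcx cells, 16.1 in CGE, 4.21 in CTX and 3.72 in MGE. Drd1 was at 6.30 CPM in LGE and 6.91 CPM in CTX, which did not differ beyond counting error (CTX over LGE 1.10-fold, 0.751 to 1.58). Pdyn had 0 UMIs in LGE high-Dcx cells, and Chrm4 and Slc35d3 were at 0.0707 CPM (1 UMI each). Of 16 general striatal genes 9 passed that rule, Meis2 (2668 CPM) and Foxp1 (357 CPM) among them. Of 7 detected indirect-pathway genes 2 passed, Six3 (418 CPM) and Adora2a (9.62 CPM), whereas Sp9 was highest in MGE, at 810 CPM against 447 CPM in LGE. Levels are compared here between libraries and not between genes, since 3′ counts are not scaled to length.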

How the data were processed

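The deposited matrices hold raw counts, whole UMI counts per gene and cell barcode, which the authors made with Cell Ranger by alignment to mm10 (GRCm38). The submitters' processing notes name version 3.0.0 and the file header 3.0.2, and the gene annotation and strand setting are not given in the sources used here. No cell annotation was used.

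Cells with 1500 to 4500 genes, under 5% mitochondrial and under 1% beta-globin UMIs were kept, and simulated doublets were used to remove 122 to 275 cells per library (0.8% per 1000 barcodes). Libraries held 31451467 to 49794765 UMIs. CPM are UMIs summed over cells per 1000000. Shares and sets of members were taken after thinning each cell to 3000 UMIs. Ratios between cells with and without a member used the cells' own depth and leave out the member's UMIs. Intervals (95%) are exact Poisson, Clopper-Pearson or conditional binomial and cover counting error only. A count of 0 was given a limit of 3 counts.

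Regions had 1 library each, so no test compared them. Classes were compared by edgeR 4.0.16 (R 4.3.3), glmQLFit and glmQLFTest with TMM factors on summed counts of LGE, MGE and CGE, library as block, Benjamini-Hochberg adjusted over all genes tested at 0.05. Whether the 3 libraries come from the same embryos is not given. The p-values measure the spread between regions. The blocks pair the classes because both come from the same library. Scripts used Python 3.11.15, scipy 1.17.1 and scikit-learn 1.9.0, and the count test was tested on simulated data. Alternatives were DESeq2 1.42.0, other gates, other thinning, no filter on low counts, no block, CTX added, and leaving out each library. The thinned version of the ratios was chosen after seeing the data.

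The members and gene lists were chosen with earlier results of these data known. The named genes are the members, the 3 listed genes with the largest and the 1 with the smallest ratio in a list, genes whose role the text needs, and the 5 genes most correlated with each member. Other genes were named after their values were seen. Gpr52 matched no feature and is not reported. A further listed gene is not reported here. Promoter windows came from a RefSeq table of GRCm38.p6.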

Additional observations from a re-analysis of the deposited data

Results flagged for a closer look

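Differences between libraries given here were not tested, since each region had 1 library. In CTX, Zfhx3 was 0.247-fold in high-Dcx over high-Nes cells, opposite in direction to LGE (6.41), MGE (8.67) and CGE (6.32).

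Six3 with Ebf1 was 0.153-fold in LGE high-Dcx cells and 6.01-fold in MGE. Six3 with Isl1 was 0.471-fold in LGE, 6.72-fold in MGE and 1.92-fold in CGE. Six3 with Zfp503 was 0.938-fold in LGE, 6.99-fold in MGE and 3.50-fold in CGE. Tac1 with Ebf1 was 66.9-fold in LGE and 0.0713-fold in CGE, where the cells with Ebf1 held 2 UMIs of it. Gad2, a GABA synthesis enzyme, was 1.38-fold with Ebf1 in LGE and 0.853-fold in CGE, where 30.9% of the cells with Ebf1 held at least 2 glutamatergic markers.

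The globin-rich barcodes of LGE, which entered no comparison, held 28 UMIs of Ebf1 and 16 of Isl1. The Ebf1 UMIs lay in 3.39% of the 59 barcodes, and neither gene had a UMI in such barcodes of MGE or CGE.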

How the results depend on the processing

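For each member the LGE level in high-Dcx cells stayed above that of the next highest library, CGE, under every alternative run. On the log2 scale the ratio was 2.17 for Ebf1, 1.67 for Isl1, 2.53 for Zfp503 and 1.47 for Zfhx3. With the class limit at 1.0 it was 2.34 for Ebf1 and 1.81 for Isl1, with the limit at 2.0 it was 2.76 for Zfp503 and 1.62 for Zfhx3, and with thinned cells it was 2.27, 1.86, 2.76 and 1.56 in the order above. The share of LGE high-Dcx cells with a member moved with depth. At a limit of 1.0 it was 28.6% for Ebf1, 41.1% for Isl1 and 49.7% for at least 2 members, and at 2.0 it was 22.1%, 33.8% and 42.7%, with Zfhx3 at 51.9%. At the cells' own depth it was 28.4%, 44.0%, 51.1% and 69.1% for Ebf1, Isl1, Zfp503 and Zfhx3 and 55.9% for at least 2. Thinned to 2000 UMIs it was 32.5% for Isl1, 32.2% for Zfp503, 45.6% for Zfhx3 and 40.9% for at least 2.

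Genes higher in the MZ than in the SVZ gate numbered 2549 with edgeR, 1692 with DESeq2 and 1639 with thinned cells, and the cause was not tested. Without the library block 3337 genes were higher in high-Dcx over high-Nes cells and 2033 in MZ over SVZ, and the MZ over SVZ differences of Isl1 (2.28), Zfp503 (1.51) and Zfhx3 (1.04) no longer passed, which were the calls of a member that the block changed. DESeq2 left Zfhx3 at an adjusted p of 0.0653 in that comparison. Leaving out each library gave 2845 to 3051 genes higher in high-Dcx cells and 2001 to 2695 in the MZ gate, and every member kept its call. The median of all genes moved to -0.19 and -0.09 with DESeq2 and to 0.19 and 0.21 with no filter. When cells were thinned, Tac1 with Zfp503 went from 3.52-fold to 0.855-fold and Penk with Zfp503 from 2.75-fold to 0.730-fold, both with intervals that then included 1, and the cause was not tested. Of 314 LGE ratios, 198 had an interval off 1, and 4 of these 198 lay on the other side of 1 when thinned. Of 47 ratios of named genes, 24 moved outside their interval when thinned, 2 reversed and 21 stayed within it.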

Other observations

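Among cells called pericyte or mesenchyme, Zfhx3 was found in 7 of 8 LGE cells, 7 of 9 CGE cells, 12 of 21 MGE cells and 10 of 31 CTX cells. In the few endothelial cells, Ebf1 was found in 5 of 9 in MGE (186 CPM) and 2 of 5 in LGE (136 CPM).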
